A study of Mus musculus with 4 samples.

Results

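The transcripts described here are 32 genes that mark cells other than neurons in the mouse brain: 14 of microglia, 8 of endothelial cells, 4 of mural cells (pericytes and smooth muscle), 4 of fibroblasts and 2 of red blood cells. They were picked by symbol from the 52636 genes of a table of raw read counts, taking the most-read row where a symbol had several, which concerned Itgam alone. The tissue was the dentate gyrus, the region of the hippocampus where neurons are born in adult mice. Fmr1 knockout mice (Fmr1-/y, 2 libraries) were compared with wild type littermates (2 libraries), all of the C57BL/6 strain and 6 to 7 weeks old. The series names Dcx-DsRed positive cells, in which a red fluorescent reporter marks cells that express doublecortin (Dcx), a microtubule protein of immature neurons. The protocol text gives 10000 living cells a sample, either all cells or DsRed positive ones, and does not name the knockout allele or say whether replicates were separate animals. If they were not, p-values measure spread that is partly technical.

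Microglia are the resident macrophages of the brain. They make most of its complement C1q, an initiator of the classical complement cascade that tags synapses for removal, and they depend on the receptor Csf1r. Endothelial cells form the blood-brain barrier and respond to VEGF through Flt1 and Kdr, and pericytes wrap capillaries and depend on Pdgfrb. None of these cells normally expresses doublecortin.

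The libraries held 5662429 and 6702841 counts in knockout replicates 1 and 2, and 5478224 and 7213759 counts in wild type replicates 1 and 2. One count was worth 0.144 to 0.171 CPM (counts scaled to a common library size after TMM). Fmr1 had 254 and 183 counts in knockout libraries, against 431 and 636 counts in wild type libraries (log2 fold change -1.17, standard error, SE, 0.36; edgeR, unadjusted p = 0.0134, adjusted p = 0.9999). Dcx lay at 456 and 211 CPM in knockout libraries and at 330 and 166 CPM in wild type libraries. Astrocytic Slc1a2 lay at 4771 to 5853 CPM over the libraries, so a defining transcript of astrocytes was abundant beside Dcx. Within a genotype the spread of counts exceeded sampling noise (chi-square over its degrees of freedom, 54.2 for the knockout pair and 38.2 for the wild type pair).

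Apart from Bsg, which neurons and glia also express, microglial, vascular and blood cell transcripts were scarce. All 32 together had 1339 and 1526 counts in knockout libraries, against 1335 and 2768 counts in wild type libraries. Per kilobase of gene length, mean levels over the 4 libraries reached 45.2 CPM for Bsg, 8.73 for Ctss, 8.22 for Pdgfrb, 7.05 for C1qb and 7.04 for Rgs5, while Dcx stood at 23.0 and Slc1a2 at 403 on the same scale. Hbb-bs followed at 4.98 and every other member stood lower. One member, Hba-a1, had 0 counts in every library. Knockout replicates 1 and 2 held at least 1 count of 20 and 27 members, and wild type replicates 1 and 2 of 22 and 31 members. In all genes with a count anywhere, those libraries held 79.5%, 74.9%, 82.8% and 86.1%.

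**Figure D1:**
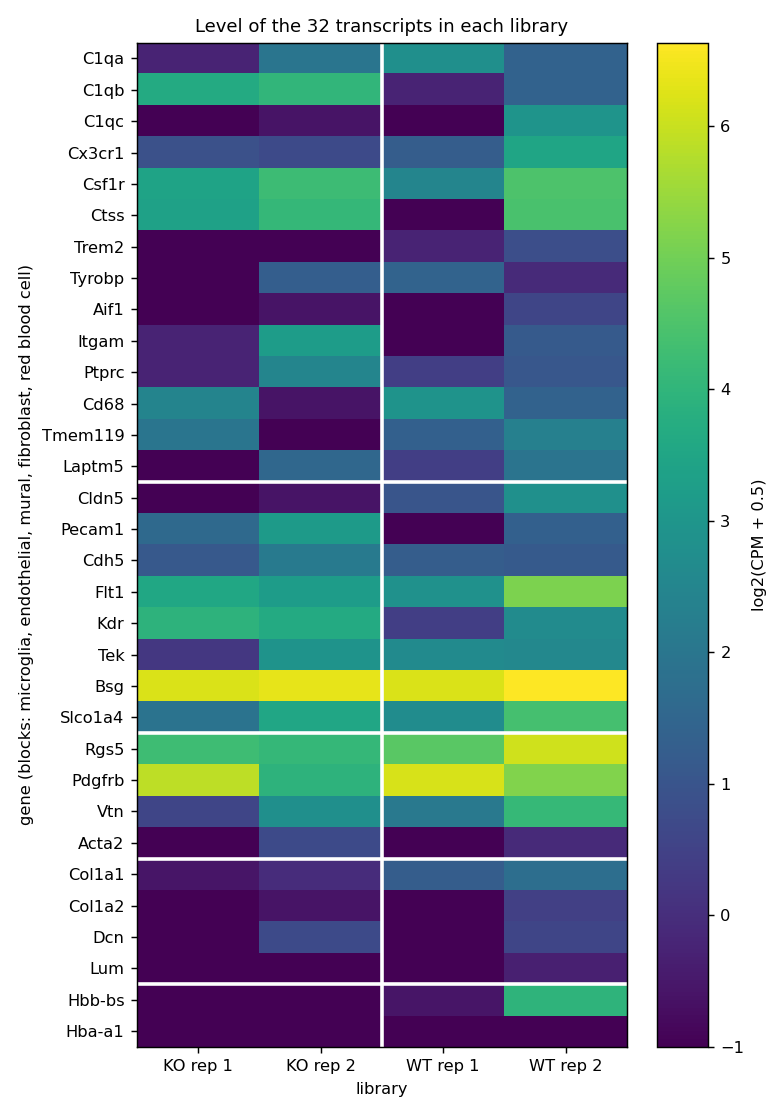
Level of each transcript (rows, in blocks by cell class) in each library (columns), as log2(CPM + 0.5) in colour, where the darkest colour is a count of 0. Bsg is bright in all 4 libraries, most rows are dark in at least 1 library, and the column of wild type replicate 2 is the brightest in 18 rows.

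No member was called between the genotypes. Counts sufficed to test 22 of the 32, and 0 of the 22 passed an adjusted p under 0.05 in edgeR's quasi-likelihood test, against 0% of the 14673 genes tested in either direction. At an unadjusted p under 0.05 the same test took 1 member on the higher side, C1qb, where 0.47% of all genes stood, and 1 on the lower side, Rgs5, where 0.579% stood. DESeq2 called 0 members and took 3 at the unadjusted threshold, C1qb above and Cldn5 and Rgs5 below 0, where 0.654% and 1.02% of genes stood. Limma voom called 0 and took 0 there, where 0.286% and 0.327% of genes stood. The 9 other detected members did not reach the filter's minimum, a count of 10 scaled to library size, in 2 libraries. Only 7 tested members reached it in all 4 libraries. The other 15 did not, and Cx3cr1, Cldn5 and Col1a1 among them passed through wild type libraries alone, where they were high. Nothing is therefore read from the p-values of these members, or from the tested members as a group. Of the 22, 7 had estimates above 0 and 15 below, where 51.6% and 48.4% of genes stood, with a median log2 fold change of -0.67 against 0.02 over all genes. Without wild type replicate 2 a different set of 22 members was tested, which lacked Cldn5, with 12 estimates above and 10 below 0. Standard errors ran from 0.31 to 2.39 with a median of 1.49, against 0.53 over all genes.

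**Figure D2:**
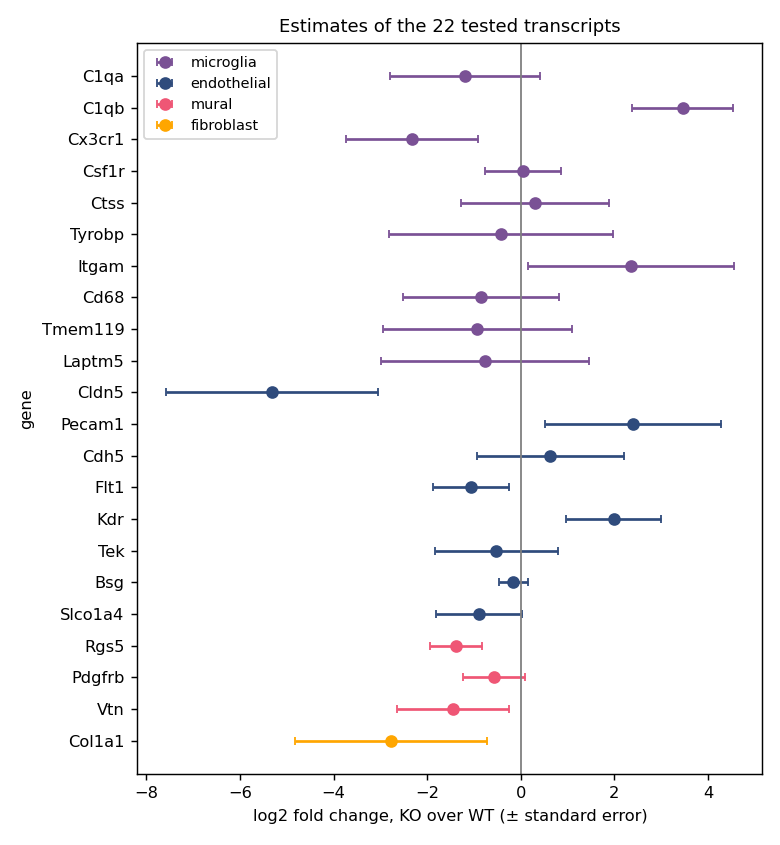
Log2 fold change, knockout over wild type, for the 22 tested transcripts, with the standard error of edgeR's fit as bars and colours for the cell classes. C1qb, at 3.46, and Cldn5, at -5.32, lie at opposite ends, and 16 of the 22 standard errors exceed 1.

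Among microglial genes the 3 chains of C1q differed from each other. C1q is built from equal numbers of A, B and C chains, encoded by C1qa, C1qb and C1qc. The genes lie side by side on the minus strand of chromosome 4 (GRCm38), C1qb at 136880129 to 136886187, C1qc at 136889804 to 136893065 and C1qa at 136895917 to 136898803, a span of 18675 bases. Their exons overlapped no other gene in GENCODE M21, and they shared no stretch of 100 bases with a transcript of another gene. The RefSeq promoters (250 bases before to 50 after the start, minus strand, GRCm38.p6) are printed for C1qb at chr4:136886151-136886450 and C1qc at chr4:136892865-136893164, because these neighbours differed in which libraries held their reads. Capitals mark GAGGAA and GGAAGT, core letters of sites of PU.1, the transcription factor of the macrophage lineage encoded by Spi1, searched on both strands.
C1qb: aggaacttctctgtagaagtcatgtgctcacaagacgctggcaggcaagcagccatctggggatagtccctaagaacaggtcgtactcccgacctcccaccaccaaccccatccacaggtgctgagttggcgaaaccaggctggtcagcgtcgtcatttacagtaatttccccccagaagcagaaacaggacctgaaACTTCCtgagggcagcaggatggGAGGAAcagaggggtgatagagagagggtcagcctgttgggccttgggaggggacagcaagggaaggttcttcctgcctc
C1qc: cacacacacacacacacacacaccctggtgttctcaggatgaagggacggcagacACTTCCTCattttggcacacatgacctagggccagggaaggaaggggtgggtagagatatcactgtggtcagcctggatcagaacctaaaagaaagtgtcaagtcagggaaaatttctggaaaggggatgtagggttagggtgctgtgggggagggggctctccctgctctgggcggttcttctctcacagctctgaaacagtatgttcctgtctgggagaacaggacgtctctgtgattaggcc
Each promoter held 1 match of GAGGAA and 1 of GGAAGT, overlapping in C1qc and apart in C1qb. Of 32851 promoters in the table, 28.3% held GAGGAA, 23.8% held GGAAGT and 8.65% held both. Spi1 itself had 0 counts in both knockout libraries and 0 and 3 counts in wild type libraries.

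C1qb had 72 and 98 counts in knockout libraries, against 2 and 15 counts in wild type libraries. Each knockout value exceeded each wild type value. That was a mean of 14.1 ± 2.53 CPM in knockout and 1.25 ± 1.29 CPM in wild type libraries (SD, n = 2 each), log2 fold change 3.46 (SE 1.08). C1qb was not called (edgeR, unadjusted p = 0.0150, adjusted p = 0.9999). Its estimate was 2.69 without wild type replicate 1 and 5.28 without wild type replicate 2. C1qa had 2 and 21 counts in knockout libraries and 38 and 15 counts in wild type libraries, and the genotypes overlapped (log2 fold change -1.19, SE 1.60). C1qc had 0 and 1 counts in knockout libraries and 0 and 50 counts in wild type libraries. It was not tested, because nearly all its reads came from wild type replicate 2. The highest library was therefore knockout replicate 2 for the B chain, wild type replicate 1 for the A chain and wild type replicate 2 for the C chain.

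The surface receptors of microglia did not share an order either. Csf1r, the receptor for colony stimulating factor 1 and interleukin 34, had 60 and 112 counts in knockout libraries and 30 and 155 in wild type libraries, log2 fold change 0.05 (SE 0.81). Some of its exons overlap those of Hmgxb3 on the opposite strand. Cx3cr1, the fractalkine receptor, had 8 and 7 counts in knockout libraries, against 11 and 75 counts in wild type libraries. Each knockout value was under each wild type value, but the gap to wild type replicate 1 was 3 counts (log2 fold change -2.32, SE 1.41). Without wild type replicate 2 the Cx3cr1 estimate was -0.58, and its exons overlap Gm33858 on the opposite strand. Cx3cr1 passed the filter through the wild type libraries alone, where it was high. Trem2, a lipid receptor, had 0 counts in both knockout libraries and 2 and 9 counts in wild type libraries. Against a floor of 3 counts over the knockout libraries that was at least 3.43-fold lower in knockout, but 9 of the 11 reads came from wild type replicate 2, and without it 2 reads remained and no fold can be given. Tyrobp, the signalling adaptor that Trem2 requires, had 0 and 12 counts in knockout libraries and 13 and 3 in wild type libraries.

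Itgam, the complement receptor subunit CD11b, had 2 and 54 counts in knockout libraries and 0 and 12 in wild type libraries (log2 fold change 2.35, SE 2.20). Without knockout replicate 2 Itgam was not tested. Of the 100-base windows in its transcripts 64.3% also stand in Gm49368, an overlapping gene on the same strand, so its counts depend on how such reads were assigned. Ptprc (CD45), the phosphatase of all leukocytes, had 2 and 31 counts in knockout libraries and 5 and 11 in wild type libraries. Both were highest in knockout replicate 2. Tmem119, a marker that separates microglia from other macrophages, had 20 and 0 counts in knockout libraries and 12 and 31 in wild type libraries.

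Lysosomal genes of microglia were as uneven. The protease cathepsin S (Ctss) had 58 and 101 counts in knockout libraries and 0 and 147 in wild type libraries, so the library without a read of it, which allows up to 0.548 CPM of the unscaled library, was of the same genotype as the highest. Cd68, a lysosomal membrane protein, had 29 and 1 counts in knockout libraries and 42 and 15 in wild type libraries, which was higher in replicate 1 of both genotypes. Laptm5 had 0 and 15 counts in knockout libraries and 5 and 23 in wild type libraries, higher in replicate 2 of both. Aif1 (Iba1), an actin-binding protein widely used to stain microglia, had 0 and 1 counts in knockout libraries and 0 and 7 in wild type libraries. The estimates of Ctss, Cd68 and Laptm5 were smaller than their standard errors.

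Summed over the 14 genes, microglial transcripts came to 43.2 and 73.6 CPM in knockout libraries and 27.1 and 81.8 CPM in wild type libraries. The genotypes overlapped, with means of 58.4 ± 21.5 CPM in knockout and 54.5 ± 38.7 CPM in wild type libraries (SD, n = 2 each) and a log2 ratio of 0.10. That ratio was 1.11 without wild type replicate 2. The median of the members' log2 differences at CPM plus 0.5 had the other sign, -0.75. As unscaled CPM, a share of all reads, the sums were 44.7 (exact 95% binomial interval 39.3 to 50.5) and 67.7 (61.6 to 74.3) in the knockout libraries, and 29.2 (24.9 to 34.1) and 78.7 (72.4 to 85.5) in the wild type libraries. These intervals cover counting error only, and in such bulk samples fewer cells of a type and less RNA in each cell cannot be told apart.

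**Figure D3:**
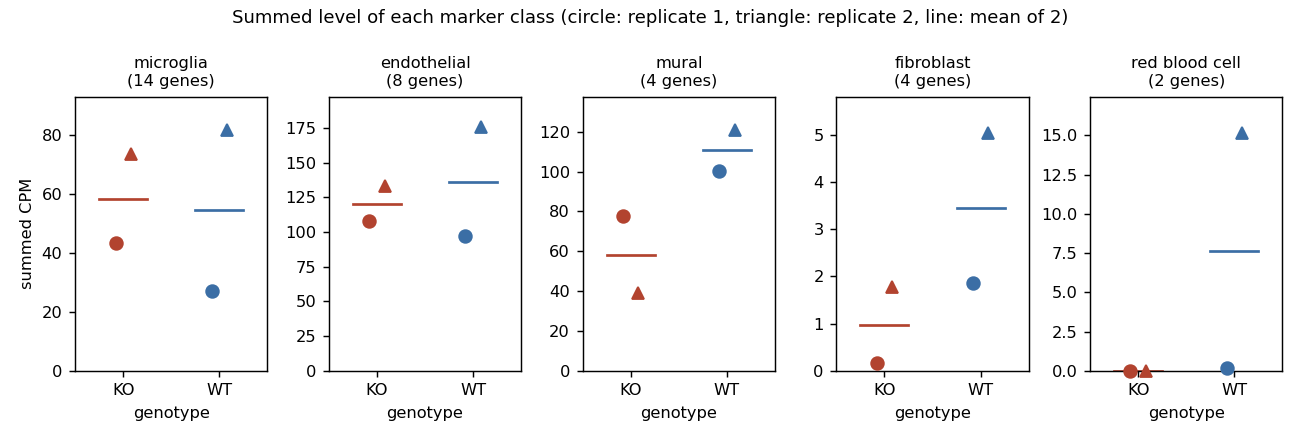
Summed CPM of each marker class in knockout (left) and wild type (right) libraries, with circles for replicate 1, triangles for replicate 2 and a line for the mean of 2. Only the mural and red blood cell sums, and the fibroblast sum at 0.17 and 1.78 against 1.86 and 5.04 CPM, have each knockout value under each wild type value.

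Endothelial genes did not move together between the genotypes. Cldn5, the main claudin of the blood-brain barrier (chromosome 16, 18776847 to 18778262, GRCm38), had 0 and 1 counts in knockout libraries, against 9 and 46 counts in wild type libraries. Each knockout value was under each wild type value, and the ratio of pooled counts was 51.5-fold lower in knockout, exact 95% binomial interval 8.87 to 2071 for counting error alone. Of the 55 wild type reads 46 came from replicate 2, and without that library 9 reads remained against 1 and Cldn5 was not tested. With all libraries the log2 fold change was -5.32 (SE 2.26; edgeR, unadjusted p = 0.0514, adjusted p = 0.9999). Cldn5 passed the filter through the wild type libraries alone, where it was high, so nothing is read from its p-value. Kdr (VEGFR2), the main signalling receptor for VEGF (chromosome 5, 75932827 to 75978458), had the opposite order. It had 87 and 75 counts in knockout libraries, against 5 and 41 counts in wild type libraries, log2 fold change 1.99 (SE 1.02), and was not called. The Kdr estimate was 1.19 without wild type replicate 1 and 3.95 without wild type replicate 2. Pecam1 (CD31), an adhesion molecule of endothelial junctions, had 15 and 52 counts in knockout libraries and 0 and 14 in wild type libraries, again with both knockout libraries above (log2 fold change 2.41, SE 1.88). The Pecam1 estimate was 1.31 without knockout replicate 2 and 1.43 without wild type replicate 1, and without wild type replicate 2 no wild type read was left.

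Flt1 (VEGFR1), which binds VEGF and limits its action on Kdr, had 65 and 55 counts in knockout libraries and 40 and 242 in wild type libraries. Its wild type libraries lay on either side of the knockout libraries (log2 fold change -1.06, SE 0.82), and without wild type replicate 2 the estimate was 0.55. The angiopoietin receptor Tek (Tie2) had 4 and 44 counts in knockout libraries and 34 and 38 in wild type libraries. Cdh5, the cadherin of endothelial junctions, had 10 and 24 counts in knockout libraries and 11 and 12 in wild type libraries. The barrier transporter Slco1a4 had 19 and 67 counts in knockout libraries and 36 and 140 in wild type libraries, so replicate 2 was 3.34 times replicate 1 in knockout and 3.30 times in wild type on the CPM scale. Bsg (basigin), a partner of lactate transporters that neurons and glia also express, was the most even member. It had 431 and 503 counts in knockout libraries and 436 and 687 in wild type libraries, log2 fold change -0.16 (SE 0.31).

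Bsg made up most of the endothelial sum, which was 107.8 and 133.0 CPM in knockout libraries and 96.8 and 175.7 CPM in wild type libraries (log2 ratio -0.18, and -0.22 without Bsg). The genotypes overlapped, and without wild type replicate 2 the log2 ratio was 0.31.

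**Figure D4:**
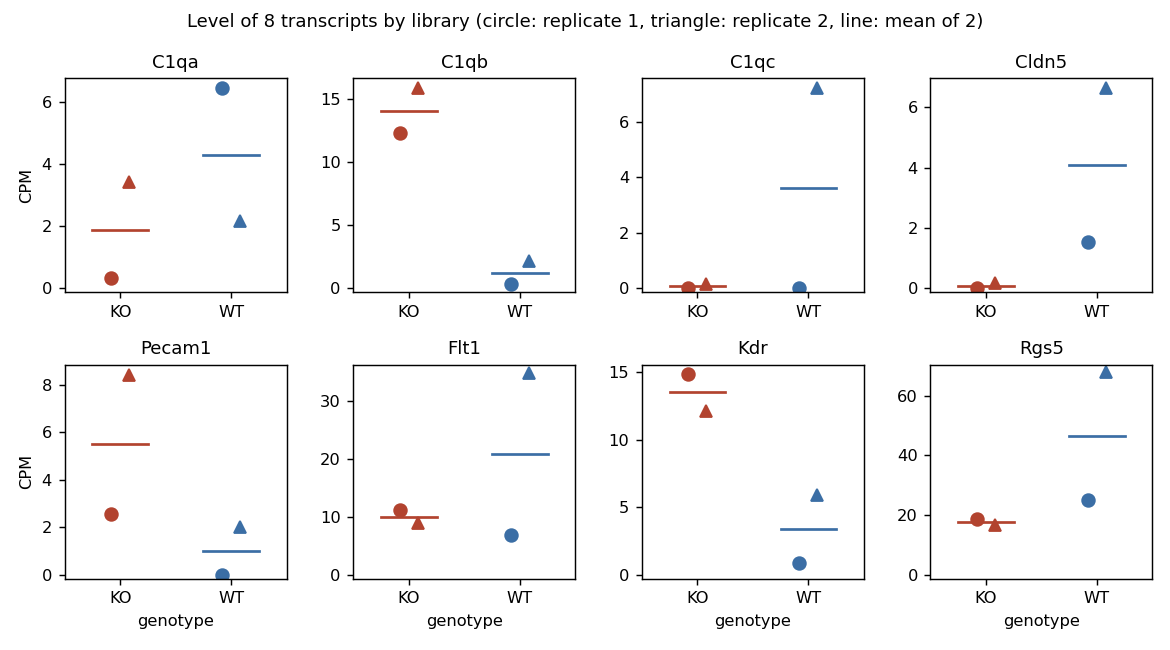
CPM of 8 transcripts in knockout (left) and wild type (right) libraries, with circles for replicate 1, triangles for replicate 2 and a line for the mean of 2. Each knockout value exceeds each wild type value for C1qb, Pecam1 and Kdr and is under each of them for Cldn5 and Rgs5, while C1qa, C1qc and Flt1 overlap.

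Of the mural genes, Rgs5 had the most reads in wild type replicate 2 and Pdgfrb in wild type replicate 1. Rgs5, a regulator of G protein signalling typical of pericytes (chromosome 1, 169655501 to 169695813, GRCm38), had 110 and 102 counts in knockout libraries, against 147 and 471 counts in wild type libraries. That was a mean of 17.7 ± 1.60 CPM in knockout and 46.4 ± 30.3 CPM in wild type libraries (SD, n = 2 each), each knockout value being under each wild type value. The log2 fold change was -1.39 (SE 0.56; edgeR, unadjusted p = 0.0409, adjusted p = 0.9999). Without wild type replicate 2 the estimate was -0.51. Pdgfrb, the receptor for PDGF-B by which pericytes are recruited, had 338 and 91 counts in knockout libraries and 423 and 249 in wild type libraries, higher in replicate 1 of both genotypes (log2 fold change -0.57, SE 0.67). The Pdgfrb estimate was 0.089 without knockout replicate 2 and 0.0087 without wild type replicate 1. Vtn (vitronectin), a matrix protein, had 6 and 40 counts in knockout libraries and 22 and 117 in wild type libraries, higher in replicate 2 of both (log2 fold change -1.45, SE 1.20). Without wild type replicate 2 the Vtn estimate was -0.00082, and without knockout replicate 2 it was -3.32. Acta2, the actin of smooth muscle, had 0 and 7 counts in knockout libraries and 0 and 3 in wild type libraries.

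The mural sum was 77.5 and 38.9 CPM in knockout libraries and 100.4 and 121.0 CPM in wild type libraries. Each knockout value was under each wild type value, with a log2 ratio of -0.93 over the means, -0.37 among replicate 1 libraries and -1.64 among replicate 2 libraries. The means were 58.2 ± 27.3 CPM in knockout and 110.7 ± 14.6 CPM in wild type libraries (SD, n = 2 each), and no test was applied to such sums.

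Fibroblast members had at most 20 counts in a library, and blood transcripts came almost wholly from wild type replicate 2. Col1a1, a chain of type I collagen, had 1 and 3 counts in knockout libraries, against 11 and 20 counts in wild type libraries, with both knockout libraries below (log2 fold change -2.78, SE 2.05). Its partner chain Col1a2 had 0 and 1 counts in knockout libraries and 0 and 6 in wild type libraries. The matrix proteoglycan Dcn had 0 and 7 counts in knockout libraries and the same counts in wild type libraries, and its relative Lum had 0 and 0 counts in knockout libraries and 0 and 2 in wild type libraries. Hbb-bs, an adult beta globin, had 0 counts in both knockout libraries and 1 and 105 counts in wild type libraries. Against the floor of 3 counts over the knockout libraries it was at least 33.1-fold lower in knockout, but 105 of its 106 reads came from wild type replicate 2. With that library left out 1 count remained, and no fold can be given.

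Globin counts are uncertain for another reason: of the 100-base windows of Hbb-bs 49.7% also stand in transcripts of Hbb-bt, and of those of Hba-a1 63.3% stand in Hba-a2. Hbb-bt, Hba-a2 and Alas2, the heme synthesis enzyme of red cell precursors, had 5, 3 and 7 counts in wild type replicate 2 and 0 in each other library.

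Many members were highest in the same library. Of 31 detected members 18 (58.1%) were highest in wild type replicate 2, where 23.9% of all genes with a count and 20.4% of tested genes were highest. They were 8 of 14 microglial, 4 of 8 endothelial, 2 of 4 mural and 3 of 4 fibroblast genes, and Hbb-bs. In 17 members (54.8%) replicate 2 lay above replicate 1 in both genotypes, against 25% of genes. Each knockout value exceeded each wild type value for 3 members (9.68%), against 9.25% of genes with a count. Each knockout value was under each wild type value for 6 members (19.4%), against 13.8% of genes. All 6, namely Cx3cr1, Trem2, Cldn5, Rgs5, Col1a1 and Hbb-bs, were highest in wild type replicate 2. Summed markers of other cells also differed between replicate numbers in both genotypes. Those of oligodendrocytes stood at 3801 and 9508 CPM in knockout and 1819 and 10416 CPM in wild type libraries, and those of mature neurons at 1617 and 4013 CPM in knockout and 1680 and 2807 CPM in wild type libraries. Immature neuron markers were lower in replicate 2, at 2089 and 941 CPM in knockout and 1746 and 824 CPM in wild type libraries, and astrocyte markers too, at 10271 and 7011 CPM in knockout and 9922 and 8415 CPM in wild type libraries. Their part in these results was not tested.

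Among further genes of the same cells and pathways, 0 of 66 tested genes in 8 lists were called (edgeR). Before adjustment 2 passed 0.05, Des above and Cyba below 0, where 0.47% and 0.579% of all tested genes stood. Of 28 other microglial genes 13 were tested, 6 with estimates above and 7 below 0. Among the most abundant, Sall1, which neural progenitors also express, had 156 and 205 counts in knockout libraries, against 125 and 218 counts in wild type libraries. At an unadjusted p under 0.05 stood Cyba, a subunit of NADPH oxidase picked with its values in view, with 5 and 0 counts in knockout libraries and 50 and 58 in wild type libraries. Cyba passed the filter through the wild type libraries alone, where it was high, so nothing is read from its p-value. Of 15 genes of border macrophages and other leukocytes 9 had 0 counts in every library, and all 15 summed to 4 and 2 counts in knockout libraries and 3 and 11 in wild type libraries. Their most abundant were Lyve1, with 0 and 1 counts in knockout libraries and 0 and 6 in wild type libraries, and F13a1, with 4 counts in knockout replicate 1.

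Of 26 other endothelial genes 18 were tested, 12 above and 6 below 0. Mfsd2a, the lipid transporter of the barrier, lay at 18.3 and 83.3 CPM in knockout libraries and at 26.8 and 71.3 CPM in wild type libraries, and the glucose transporter Slc2a1 at 62.5 and 33.5 CPM in knockout and 46.6 and 69.7 CPM in wild type libraries. Of 15 other mural genes 8 were tested, 4 above and 4 below 0. Cspg4 (NG2), which oligodendrocyte precursors share with pericytes, lay at 64.7 and 604.3 CPM in knockout libraries and at 80.7 and 455.5 CPM in wild type libraries. Mcam lay at 44.6 and 67.9 CPM in knockout libraries and at 9.66 and 72.7 CPM in wild type libraries. Des (desmin), picked with its values in view, had 14 and 26 counts in knockout libraries and 0 counts in both wild type libraries, at least 14.2-fold higher against a floor of 3 counts over the wild type libraries (unadjusted p 0.0376, adjusted p 0.9999, edgeR). Des passed the filter through the knockout libraries alone, where it was high, so nothing is read from its p-value.

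Of 14 other fibroblast genes 9 were tested, 5 above and 4 below 0, led by Islr at 56.4 and 24.1 CPM in knockout and 34.9 and 18.1 CPM in wild type libraries, and Fbln1 at 40.3 and 7.62 CPM in knockout and 35.4 and 16.4 CPM in wild type libraries. Among 11 other erythroid genes, 10 of them in the table, only Bpgm had enough counts for a test, at 69.9 and 116.8 CPM in knockout and 51.0 and 107.4 CPM in wild type libraries. Of 18 complement and Tyrobp pathway genes 7 were tested, 4 above and 3 below 0. The signal regulatory receptor Sirpa lay at 174.9 and 194.9 CPM in knockout libraries and at 221.9 and 205.6 CPM in wild type libraries. Its ligand Cd47 lay at 189.9 and 319.2 CPM in knockout libraries and at 154.3 and 241.9 CPM in wild type libraries.

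Most ligands for the members' receptors were better covered than the receptors. Of 12, 10 were tested, 5 above and 5 below 0, and none was called. Fractalkine (Cx3cl1) lay at 80.5 and 103.0 CPM in knockout and 72.9 and 106.1 CPM in wild type libraries, log2 fold change 0.03 (SE 0.33). For Csf1r, Csf1 lay at 33.3 and 34.7 CPM in knockout and 52.2 and 44.1 CPM in wild type libraries (log2 fold change -0.50, SE 0.36). Its second ligand Il34 lay at 5.81 and 5.99 CPM in knockout and 3.39 and 3.46 CPM in wild type libraries (log2 fold change 0.78, SE 1.05). Both knockout libraries thus lay below wild type for Csf1 and above it for Il34, neither past the test. The same held below for Pdgfd and above for Pdgfb. Of the 12 ligands 2 were thus separated above and 2 below, where 9.25% and 13.8% of genes with a count were.

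Apoe and Clu, lipid carriers that bind Trem2, lay at 2255 and 1135 CPM and at 868 and 448 CPM in knockout libraries, against 2548 and 1661 CPM and 1090 and 724 CPM in wild type libraries. Vegfa lay at 161.8 and 165.9 CPM in knockout and 137.7 and 239.5 CPM in wild type libraries. Vegfb lay at 27.5 and 11.8 CPM in knockout and 14.8 and 21.2 CPM in wild type libraries. The genotypes overlapped for these 4. Angpt1, which activates Tek, lay at 8.20 and 21.2 CPM in knockout and 13.4 and 14.5 CPM in wild type libraries. Pdgfb and Pdgfd, ligands of Pdgfrb, had 32 and 54 and 23 and 2 counts in knockout libraries, against 21 and 18 and 28 and 54 counts in wild type libraries. Pgf had 5 and 1 counts in knockout and 1 and 0 in wild type libraries, and Angpt2 had 11 counts in wild type replicate 2 and 0 elsewhere.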

How the data were processed

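The authors deposited 1 table of raw whole-number counts per gene for 4 libraries, with a gene length. Per the submitters' processing notes, STAR 2.5.3a was used with the GRCm38 genome. Per the labels' protocols, the libraries were poly(A)-selected and strand-specific and the annotation was from Gencode. The counting program, its strand setting and the annotation release are in none of the sources used here. Counts were filtered with filterByExpr (minimum count 10), which kept 14673 of 52636 genes, scaled by TMM and fitted on genotype with edgeR 4.0.16 (R 4.3.3), by robust glmQLFit with its quasi-likelihood test (two-sided), adjusted over all tested genes by Benjamini-Hochberg. The code was tested on simulated data. A standard error (SE) is the estimate over the root of its F value. Class sums are sums of TMM-scaled CPM with no test, and intervals were computed with scipy 1.17.1. DESeq2 1.42.0 and limma 3.58.1 voom, other scalings and filters, the replicate number as a block and leaving out each library were alternatives. Positions and transcript windows of 100 bases came from GENCODE M21, in which 32 of 32 members were found, and promoters from RefSeq, with entries for 21 members. Members, lists and tests were chosen with earlier results of these data known. All members are named, all ligands, and of each further list the 2 genes with the highest mean CPM and any gene called, except genes not reported here. Cyba, Des, Spi1, Alas2, Hbb-bt and Hba-a2 were picked with their values in view. There were 0 further columns of per-sample values. A level of 0 allows up to 3 counts, 0.416 to 0.548 CPM of the unscaled library.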

Additional observations from a re-analysis of the deposited data

How the results depend on the processing

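Counts were low, with 16 of 32 members at 0 in at least 1 library. No member was called under any alternative, and 0 genes were called under each but the replicate block, which called 10, none of them a member. Libraries with the same replicate number deviated together (correlation 0.364 over genes), but the labels do not say what the number marks. With it as a block 5 members had an unadjusted p under 0.05 (C1qb, Ctss, Kdr, Pdgfrb and Rgs5, edgeR), and 778 genes against 154 without it. Leaving out 1 library gave 57 to 1053 such genes. DESeq2 gave 246, limma voom 90 and no filter 262, with Hbb-bs, C1qb, Kdr and Rgs5 among the last (edgeR).

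Of 276 member estimates under alternatives 258 kept their sign, among them Vtn at -0.00082 without wild type replicate 2, and 18, of 12 members, turned, each on leaving out 1 library. Without 1 library the log2 fold changes ran from -0.66 to 1.47 for Csf1r, -0.69 to 9.29 for Ctss, -6.06 to 1.13 for Tyrobp, -4.67 to 0.23 for Cd68, -7.38 to 0.057 for Tmem119, -6.72 to 0.50 for Laptm5, -0.085 to 1.11 for Cdh5, -1.80 to 0.55 for Flt1, -3.02 to 0.34 for Tek, -0.36 to 0.056 for Bsg, -2.02 to 0.20 for Slco1a4 and -1.86 to 0.089 for Pdgfrb. Among members that kept their sign they ran from -3.32 to -0.00082 for Vtn, -3.10 to -0.58 for Cx3cr1, -3.59 to -0.21 for C1qa, 1.38 to 7.77 for Itgam, 1.31 to 8.04 for Pecam1, 1.19 to 3.95 for Kdr, 2.69 to 5.28 for C1qb, -1.95 to -0.51 for Rgs5, -3.66 to -2.24 for Col1a1 and -7.68 to -4.50 for Cldn5, which was not tested without wild type replicate 2. Itgam was not tested without knockout replicate 2, which held 54 of its 56 knockout reads. Where the library left in a genotype had 0 counts (Ctss, Itgam, Pecam1, Tyrobp, Tmem119, Laptm5 and Cldn5) the extreme value depends on the prior count and is no bound. The cause was not tested.
The log2 ratios of class sums then ran from -0.49 to 1.11 for microglial, -0.55 to 0.31 for endothelial, -1.51 to -0.51 for mural and -4.34 to -0.93 for fibroblast genes, and the bound for Hbb-bs was 16.1-fold to 60.6-fold lower on leaving out any library but wild type replicate 2, without which there is no bound. Other scalings moved no class sum by more than the spread between replicates.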
